A study of Rattus norvegicus with 18 samples.

Results

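The most methylated regions of male fetal germ cells at gestational day (GD) 16 were taken from a list of regions whose DNA methylation differed between male and female germ cells of rat fetuses. A region was a member if its mean methylation in control males was 35% or more, and 895 of the 48127 listed regions met this, or 1.86%. Germ cells were sorted by their germ-cell-specific green fluorescent protein from transgenic Sprague-Dawley rats (GCS-EGFP), and bisulfite libraries were enriched with a rat capture panel. The 18 samples form 5 groups: 4 males and 3 females at GD16 from dams on a high-fat diet (HFD, 45% of energy from fat), 4 males at GD18 from dams on a control diet (18% of energy from fat), and 4 control males and 3 control females at GD16 from dams on that control diet. Each diet had 5 dams, all groups carry the transgene, and the labels do not say which litters the samples of a group came from. According to the design text, 4 samples come from an earlier project, but their group is not named.

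Germ cells of the fetus erase most of the DNA methylation they inherited at CpG sites (a cytosine followed by a guanine), and male germ cells then lay down a new pattern before birth, while female germ cells stay low until the oocyte grows after birth. In the mouse, some repeats, in particular IAP retrotransposons, are known to keep part of their methylation through the erasure. The rule for the members was written as a search for regions that keep methylation during erasure.

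All levels are group means from the authors' deposited tables, which hold no value per sample and no coverage, so no spread over samples can be given and the precision of a single level is unknown. The tables list a region only if the means differ by at least 10 points over at least 5 CpGs with a false discovery rate (FDR) of 0.05 or less, in the authors' own test. That test is labelled a t-test, and the label does not say whether its unit is samples, CpGs or reads. Its FDRs are therefore not read as evidence across animals. A region that is not listed in a comparison has no value there, which is not the same as no difference. Regions that are high in both sexes are absent from the list unless the sexes differ, so the members are the most methylated among the listed regions only.

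The members were selected on the control male mean, so their levels in the authors' deposited sex table are a description. The members had a median of 38.5% in control males (quartiles 36.3 and 42.4%) and 4.7% in control females (quartiles 2.2 and 8.1%). The other 47232 regions had a median of 19.4% in control males and also 4.7% in control females. Control males were the higher group at 894 members and control females at 1, in a table where 99.7% of all regions are higher in males. Most members sat close to the threshold: 348 reached 40%, 82 reached 50%, 37 reached 60%, 20 reached 70%, 10 reached 80% and 2 reached 90%. At the threshold itself, 19 regions had 35%, among them regions in Hnrnpl and Tgfb2, and 25 regions just outside had 34.9%, among them a region in Kank1.

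**Figure D1:**
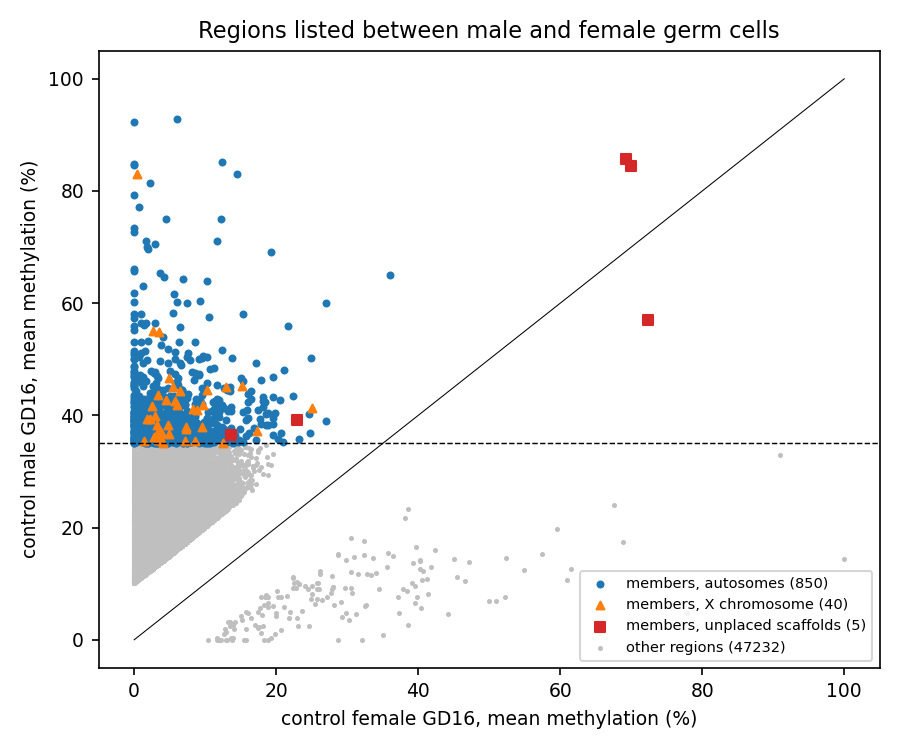
Mean methylation in control males (vertical axis, %) against control females (horizontal axis, %) at GD16 for every region of the sex comparison, with the members in colour, the other regions in grey, the dashed line at 35% and the solid line at equal levels. The members lie far above the solid line with female levels mostly under 10%, except for 3 regions of an unplaced scaffold at 69.3 to 72.4% in females.

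Female germ cells were not uniformly empty at the members. A control female mean of exactly 0% was deposited for 82 members (9.16%), against 567 of the other regions (1.2%). At the opposite end, 151 members (16.9%) had 10% or more in control females, against 1655 other regions (3.5%). The listing rule sets part of this, since a region that is higher in males by 10 points can reach 10% in females only from 20% in males on, a level that many of the other regions do not have. Only 4 regions of the whole sex table had 35% or more in both sexes, and all 4 are members. One of them lies in an intron of Prkcz, which encodes an atypical protein kinase C, with 65.1% in control males and 36% in control females (chr5:172705563-172705650, 6 CpGs). The other 3 lie next to each other on an unplaced scaffold that carries no gene annotation.

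The highest level of all was at the promoter of Lima1, an actin-binding LIM protein, where the authors' deposited table gives 92.9% in control males and 6.0% in control females over 5 CpGs (chr7:141494826-141494918). An intron of Pdss2, an enzyme subunit of coenzyme Q synthesis, had 92.3% in control males and 0% in control females (chr20:48167592-48167682, 5 CpGs). Introns of Zc3h15, a zinc finger protein gene, and Usp14, which encodes a deubiquitinase of the proteasome, had 84.8% and 84.7% in control males, and both had 0% in control females. Tmem123 had 85.1% in control males and 12.3% in control females, and Lnx1, a ubiquitin ligase gene, had 83.1% in control males and 14.5% in control females. These top regions are short: 14 of the 20 members at 70% or more rest on exactly 5 CpGs.

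Among the 114 members with 10 or more CpGs, the levels were lower at the top end. Outside the scaffold the highest was an intergenic region with 63.9% in control males and 10.2% in control females over 11 CpGs (chr4:126305476-126305670). Tpd52l2 followed among named genes with 50.0% in control males and 5.8% in control females (chr3:176992924-176993512, 11 CpGs), and the 3' UTR of Zfp532, a zinc finger gene, had 46.3% in control males and 0.8% in control females. A region with 23 CpGs and no named gene had 48.0% in control males and 5.1% in control females (chr14:88874318-88874556). The member with the most CpGs, 32, had 35.1% in control males and 10.3% in control females (chr5:139932997-139933797).

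Members were smaller and denser in CpGs than the other listed regions, properties that the rule did not use. The median member had 6 CpGs in 172 bp, against 9 CpGs in 447 bp for the other regions, or 3.87 against 2.2 CpGs per 100 bp. Exactly 5 CpGs, the fewest allowed, were found in 346 members (38.7%) and in 14.5% of the other regions. Only 12.7% of the members had 10 or more CpGs, against 42.3% of the other regions. Among the members themselves the number of CpGs and the control male level were barely related (Pearson's r of -0.07, Spearman's rank correlation of -0.12 over 895 regions, as a description). A mean over few CpGs varies more than one over many, and the part of region size in the selection was not tested.

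**Figure D2:**
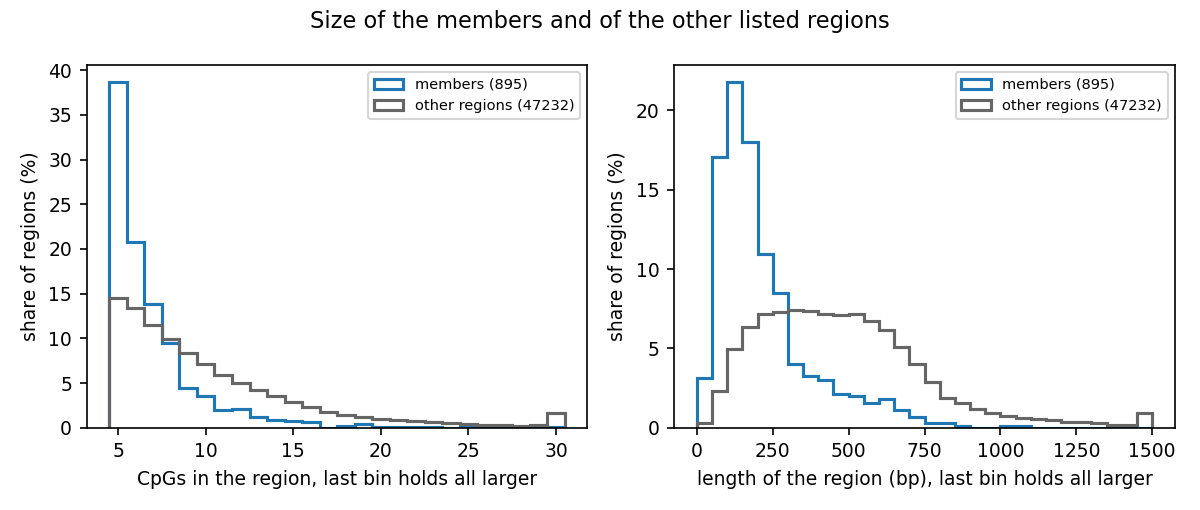
Share of regions (%) by number of CpGs (left) and by length in bp (right) for the 895 members and the 47232 other listed regions, with the last bin holding all larger regions. The members pile up at 5 CpGs, with 38.7% of them there, and at lengths under 250 bp.

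The annotation deposited with the regions placed 479 members (53.5%) between genes and 288 (32.2%) in introns, against 49.0% and 37.1% of the other regions. Exons held 89 members (9.94%), against 7.24% of the other regions, and promoters held 12 (1.34%, against 2.31%). The 3' UTRs held 15 (1.68%, against 1.85%), and transcription termination sites held 7 (0.782%, against 2.24%). None of the 63 listed regions in 5' UTRs was a member, but these are only 0.133% of the other regions. With 1.86% of all listed regions being members, 63 regions are too few to read this 0 as a difference. CpG islands held 7 members (0.782%, against 0.277% of the other regions). Repeats as a whole were about as frequent: 35 members (3.91%) and 3.69% of the other regions were annotated as a repeat. Among the members were 21 SINEs, 9 DNA repeats, 2 LINEs and 2 LTR elements. The classes differed: members were 5.36% of the listed DNA repeats and 1.87% of the listed SINEs. They were 1.08% each of the listed LINEs and LTR elements, beside 1.86% of all listed regions. The DNA, LINE and LTR shares rest on 9, 2 and 2 members, without a test. No listed region of the sex table was annotated as an IAP element, so the repeat known from the mouse is without a value here.

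The X chromosome held 40 members, or 7.6% of its 526 listed regions, against 850 (1.79%) of the 47563 listed regions on autosomes. The control male medians of all listed regions were closer, at 20.9% on the X chromosome and 19.5% on autosomes. Only 12 of the 40 X-linked members carry a gene symbol, among them Tug1, which the reference annotation places on chromosome 14. Otud5, a deubiquitinase gene, had 55.0% in control males and 2.6% in control females in an exon, and Fhl1, a LIM domain gene active in muscle, had 54.9% in control males and 3.5% in control females. The highest X-linked member is intergenic, with 83.1% in control males and 0.4% in control females (chrX:42433918-42433957, 5 CpGs). Unplaced scaffolds held 5 members of 38 listed regions (13.2%).

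Members were scattered over the genome. The median distance from a member to the nearest other member was 499541 bp, and 9 members had another within 1000 bp. A gene symbol could be matched for 390 members, which lie in 364 genes, or 4.65% of the 7820 genes with a listed region. One member was found in 341 genes, 2 members in 21 genes, and more in Taok3 and Nphp4 only. Taok3, a kinase of the Ste20 family, had 4 intronic members with 35.3, 36.4, 40 and 41.4% in control males, and 3.5 to 9.0% in control females. Nphp4, a gene of the primary cilium, had 3 with 36.4, 38.7 and 42.0% in control males, and 7.1 to 11.3% in control females. The symbol and the chromosome disagree with the reference annotation at 2 members, in Hspa8 and Tug1, which are therefore uncertain as gene names.

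Of all 7820 genes with a listed region, 4.65% had a member, and the gene groups below are read beside that share. Of 21 germline and genome defence genes with a listed region, 0 had a member. That list is a selection of genes, and Hsf2bp, a meiotic gene described below that has a member, is not on it. Of 10 marker genes of somatic gonad, blood and endothelial cells, 0 had a member. Of 19 imprinted genes with a listed region, 2 had a member (10.5%): Sfmbt2, imprinted in the mouse placenta, with 35.6% in control males, and Trappc9, imprinted in the mouse brain, with 41.4%. Of 14 genes of DNA methylation and chromatin, 2 had a member (14.3%), both encoding histone H3 lysine methyltransferases. These are Ehmt2 with 35.6% in control males and 5.7% in control females over 12 CpGs, and the X-linked Suv39h1 with 35.4% in control males. Metabolism genes had 3 of 38 (7.89%), among them Pfkp, a phosphofructokinase of glycolysis, and Glp1r, the receptor of glucagon-like peptide 1. Olfactory and vomeronasal receptor genes had 2 of 89 (2.25%), Or4g7 and Vom2r36. The imprinted, chromatin and metabolism shares lie above that of all genes and the other 3 below it, each from 0 to 3 genes and without a test. By region, the members were 2 of 71 for imprinted, 2 of 35 for chromatin and 3 of 166 for metabolism genes. They were 0 of 56 for germline, 0 of 30 for somatic marker and 2 of 100 for receptor genes. Beside the 1.86% of all listed regions, the metabolism list is then not above and the receptor list not below.

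The promoter members are shown because a promoter is where methylation is known to bear on transcription. Promoters held 12 members, and 10 of them (83.3%) lie at a region listed as lower in HFD males, against 56.0% of all members and 11.0% of all regions of the sex table. The control males that chose the members enter that comparison too, so the gap to all regions is not independent of the choice. The 83.3% rests on 12 regions only. The 250 bases before the gene's start were found for 8 of the 12 in RefSeq (assembly GRCr8), and their CpG number ran from 1 in Or4g7 to 42 in Agap1, against a median of 5 over all 33469 promoters (quartiles 2 and 15). The 8 include Tug1, also with 1, whose RefSeq promoter lies on chromosome 14 while its member lies on the X chromosome. For Tug1 these bases may therefore not belong to the member. The promoters of Lima1, Agap1 and Stoml3 show CpG-rich and CpG-poor cases, and each is printed on its own strand, 5' to 3', with every CG in capitals.
Lima1: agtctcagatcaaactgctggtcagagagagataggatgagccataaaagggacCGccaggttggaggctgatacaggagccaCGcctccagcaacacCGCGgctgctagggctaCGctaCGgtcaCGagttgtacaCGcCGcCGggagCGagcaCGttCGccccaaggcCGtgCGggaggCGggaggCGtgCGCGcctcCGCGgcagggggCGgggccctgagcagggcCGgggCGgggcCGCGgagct
Agap1: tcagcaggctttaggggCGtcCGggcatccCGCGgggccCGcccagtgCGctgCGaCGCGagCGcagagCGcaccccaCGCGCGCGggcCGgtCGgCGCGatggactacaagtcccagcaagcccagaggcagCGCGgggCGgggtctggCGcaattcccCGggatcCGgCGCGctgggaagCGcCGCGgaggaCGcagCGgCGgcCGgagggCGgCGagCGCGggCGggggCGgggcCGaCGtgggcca
Stoml3: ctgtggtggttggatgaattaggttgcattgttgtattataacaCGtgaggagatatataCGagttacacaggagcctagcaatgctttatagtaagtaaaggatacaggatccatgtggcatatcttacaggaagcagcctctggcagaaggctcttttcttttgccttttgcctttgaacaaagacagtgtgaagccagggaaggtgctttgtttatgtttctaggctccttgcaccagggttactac
Lima1 carries 26 CGs in this window and Agap1, a GTPase activator of membrane traffic, carries 42, so both are CpG-rich promoters. Stoml3, which encodes a stomatin-like protein of sensory neurons in the mouse, carries 2. Because the genome build behind the deposited coordinates is not named in any source used, the members could not be placed within these letters, and a promoter label in the deposited annotation can reach beyond this window. The Agap1 member had 39.2% in control males and 2.8% in control females, and the Stoml3 member had 35% in control males and 0% in control females.

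The HFD comparison in males uses the same control males that chose the members, so the members had to start high there and their fall is not independent of the choice. With that limit, 507 members (56.6%) overlapped a region listed between HFD and control males by at least 1 bp, in 519 pairs of regions, and 388 were not listed. A lower listed region was found at 501 members (56.0%), against 11.0% of all regions of the sex table, and a higher one at 7 members (0.782%), against 1.21% of all. In the lower pairs the HFD male median was 13.1% (quartiles 8.5 and 17.6%) and the control male median 38.6% (quartiles 35.6 and 42.9%). The median difference of HFD minus control was -25.6 points, 370 pairs differed by 20 points or more, and 22 by 50 points or more. HFD males had 35% or more in 6 of the 519 pairs. The 164 pairs with the same start and end in both tables were all lower, with a median of 12.7% in HFD males and 39.8% in control males. The control male mean was the same in both tables at 153 of these 164, and the largest gap was 13.5 points.

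**Figure D3:**
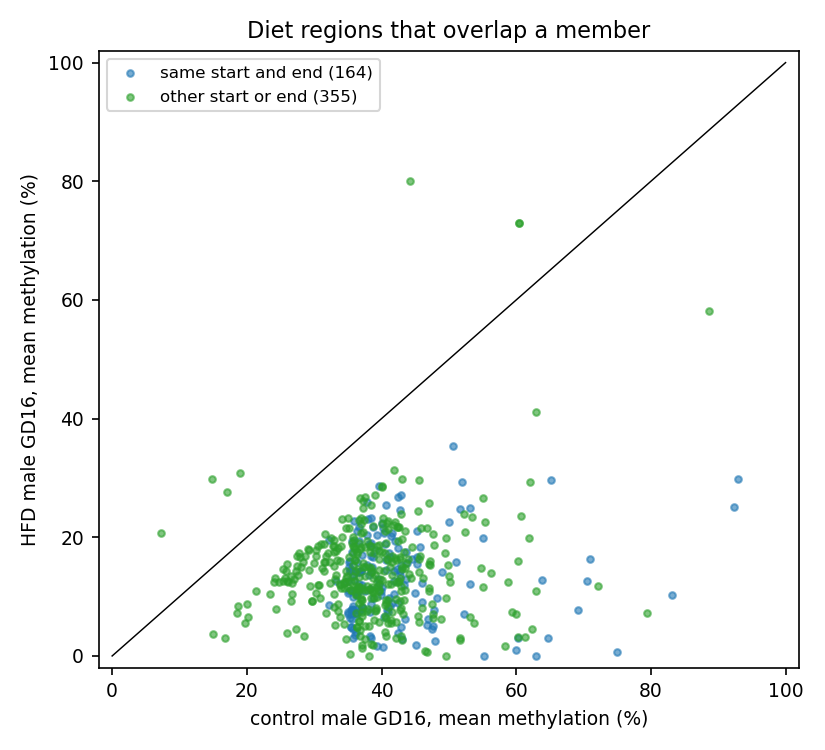
Mean methylation in HFD males (vertical axis, %) against control males (horizontal axis, %) at GD16 for the 519 pairs of a member and an overlapping diet region, by whether start and end are the same, with the line at equal levels. Nearly all points lie under the line and most HFD male levels are under 20%.

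HFD male levels are known only for listed members. Members of 35 to 40% in control males had an HFD median of 12.6% over 310 pairs, those of 40 to 50% had 14.4% over 163 pairs, those of 50 to 70% had 12.8% over 35 pairs, and those of 70% or more had 13.4% over 11 pairs. The upper quartiles of the HFD male level in the same bands were 17.4, 18.8, 24.2 and 27.5%. A region is listed as lower only with a fall of at least 10 points, for which regions of low control level have less room. The part of this limit in the shares that follow was not tested. The share of regions with a lower listed region in HFD males was 3.2% for sex-table regions of 15 to 20% in control males, 12.0% for 20 to 25%, 27.8% for 25 to 30%, 41.7% for 30 to 35% and 55.2% for 35 to 40%. It was 59.0% for 40 to 50%, 53.2% for 50 to 70% and 45.0% for 70% or more. The share was highest at 40 to 50% and lower again in the bands above it, which hold 62 and 20 regions. It differed with region size: 80.7% of the members with 10 or more CpGs had a lower listed region, against 9.48% of all such regions, and 40.5% of the members with exactly 5 CpGs, against 11.5% of all such regions.

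**Figure D4:**
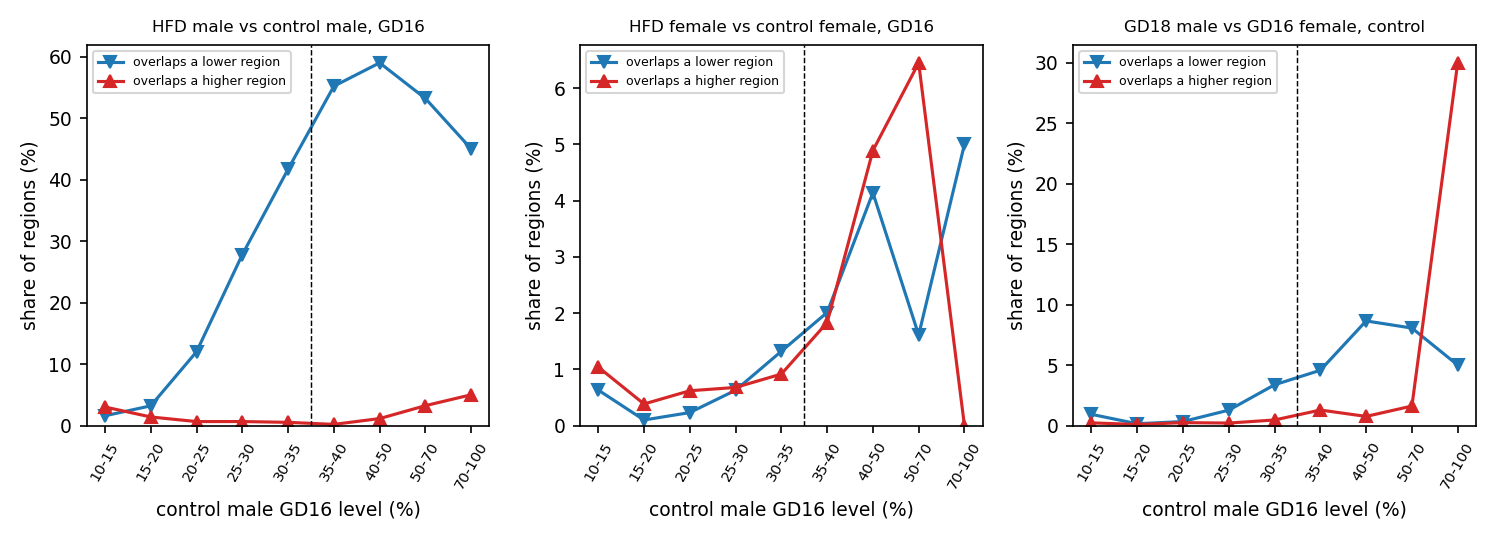
Share of sex-table regions (%) that overlap a listed lower region (downward triangles) or higher region (upward triangles) in 3 other comparisons, by control male level at GD16 in bands (%), with the members right of the dashed line. In males on HFD the lower share is highest at 40 to 50%, with 59.0%, and is 45.0% in the top band, while in the other 2 comparisons the shares of the members stay under 10%, except for 30% higher at GD18 in the top band of 20 regions. In males on HFD, low bands have less room for the 10-point fall that listing requires. The band under 10% in control males, with 110 regions, is not drawn. Its shares were 88.2% lower at GD18, 52.7% lower in HFD females and 17.3% higher in HFD males. In the opposite directions they were 0.0, 0.0 and 0.909%.

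Single regions show the size of the difference in males. An exon of Myh8, a myosin heavy chain gene of developing muscle, had 0.7% in HFD males and 75% in control males (authors' FDR 2.19e-05, 5 CpGs). Scn2a, a voltage-gated sodium channel gene, had 7.2% in HFD males and 79.4% in control males in an exon, and the intergenic X-linked region named above had 10.3% in HFD males and 83.1% in control males. The Lima1 promoter had 29.9% in HFD males and 92.9% in control males, and the Pdss2 intron had 25.1% in HFD males and 92.3% in control males. Of the 40 X-linked members, 18 (45.0%) had a lower listed region, against 56.6% of the members on autosomes, and 0 had a higher one. Ss18, a subunit gene of a chromatin remodelling complex, had 3.0% in HFD males and 64.7% in control males over 9 CpGs (authors' FDR 1.98e-26). Klc4, a kinesin light chain gene, had 1.0% in HFD males and 60% in control males. Lima1 and Pdss2 thus had more methylation in HFD males than the typical member, while Myh8, Klc4 and Ss18 were nearly empty.

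Of the 9 members in the gene groups above, 4 are not listed in HFD males and have no value there. Ehmt2 had 16.1% in HFD males and 36.1% in control males over 17 CpGs, Trappc9 had 20.2% in HFD males and 41.4% in control males, and Glp1r had 17.2% in HFD males and 36.4% in control males. Sfmbt2 overlapped a longer region with 12.4% in HFD males and 24.8% in control males. Of the 3 Taok3 members that were listed, the values were 28.6, 8.9 and 7.0% in HFD males, against 40, 40.7 and 43.2% in control males.

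A small set went the other way or overlapped regions with other values. An intergenic Charlie16 DNA repeat was listed with 80% in HFD males and 44.3% in control males, and it is the only member listed as 20 or more points higher (chr6:106209394-106209490, 5 CpGs). None of the higher regions has the same start and end as its member, and at Pik3r1, which encodes a subunit of phosphoinositide 3-kinase, the overlapping region had 29.8% in HFD males and 14.9% in control males. At the Zc3h15 member, 2 longer regions were listed with 13.4 and 12.4% in HFD males, against 35.8 and 24.1% in control males, far below the 84.8% that the sex table gives for the member itself. The control level at this site thus differed between overlapping regions of different extent.

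The GD18 comparison sets control males of GD18 against the control females of GD16 and does not use the control males of GD16. It shares the control females with the sex comparison, and a region needs a difference of at least 10 points from those females to be listed. Listed members numbered 70 (7.82%), all with the same start, end and female mean in both tables, and 825 were not listed. Control males at GD18 were lower than control females at GD16 at 54 members (6.03%), against 0.831% of all regions of the sex table, and higher at 16 (1.79%), against 0.199% of all. Over the 70, the medians were 3.6% in control males at GD18 (quartiles 2.3 and 7.8%), 40.4% in control males at GD16 and 16% in control females at GD16. The GD18 male level was under the GD16 male level at all 70, by 5.4 to 78.9 points with a median of 36.3, and at 54 it was under 10%. Other regions with the same start and end in both comparisons, a stricter criterion than the 1 bp overlap, numbered 394. Of these, 361 were lower in GD18 males than in GD16 males, with medians of 3.4% at GD18 and 22.2% at GD16. At the 54 lower members the listing rules fix this order. GD16 males are at least 10 points above the females there, and GD18 males at least 10 points below the same female mean. The same holds for other regions that are higher in GD16 males and lower at GD18, and 314 of the 394 were lower at GD18. No test of GD18 against GD16 males was deposited, and the members were chosen for a high GD16 male level, so this order is a description.

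**Figure D5:**
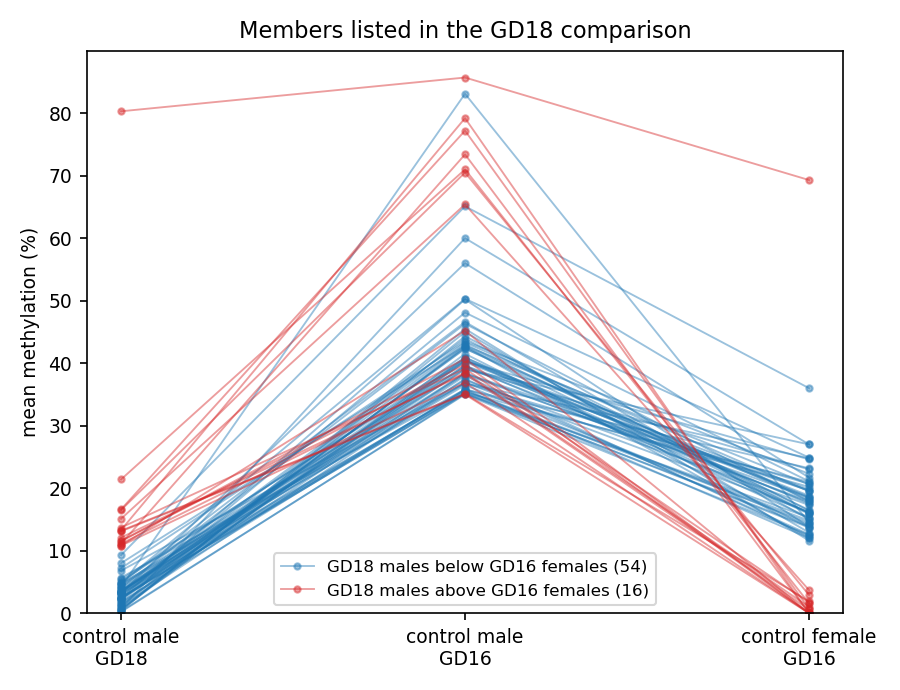
Mean methylation (%) in control males at GD18, control males at GD16 and control females at GD16 for the 70 members listed in the GD18 comparison, with 1 line per region coloured by direction. The lines peak at the GD16 males, and apart from the scaffold region at 80.3% no member is above 21.4% in GD18 males. Where GD18 males are below GD16 females, the listing rules set this peak.

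Outside the unplaced scaffolds the 68 listed members reached at most 21.4% in GD18 males, at an intergenic region with 71.0% in GD16 males and 1.6% in GD16 females (chr10:20811910-20812032). For the 825 members without a listing there is no GD18 value, so whether the members as a whole keep methylation beyond GD16 cannot be read from the tables.

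By the listing rule, members listed as lower at GD18 had at least 10% in females. Prkcz had 9.3% in GD18 males, against 36% in GD16 females, while an intergenic region had 0.7% in GD18 males, against 27.0% in GD16 females (chr11:27320608-27320712). Cby1, which encodes an antagonist of beta-catenin, had 2.4% in GD18 males and 23.2% in GD16 females over 10 CpGs (authors' FDR 4.47e-07). Tns3, a focal adhesion gene, had 3.2% in GD18 males, against 21.7% in GD16 females, while Lnx1 had 4.2% at GD18 against 14.5% in those females. All 54 had at least 11.6% in the females. Among the regions with 10% or more in control females, 35.8% of the 151 members and 19.2% of the 1655 other regions were lower at GD18.

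The 16 higher members had under 4% in females, apart from the scaffold region with 69.3%. Cnga1, a channel subunit gene of rod photoreceptors, had 16.6% in GD18 males, 77.2% in GD16 males and 0.7% in GD16 females. Scn2a had 13.3% in GD18 males, 79.2% in GD16 males and 0% in GD16 females. The transporter gene Abcc5 had 11.1% in GD18 males, 73.4% in GD16 males and 0% in GD16 females. The Stoml3 promoter had 13.1% in GD18 males, 35% in GD16 males and 0% in GD16 females. Of the 20 members at 70% or more in GD16 males, 6 (30%) were in this set, including 1 on the scaffold. Among the regions with under 10% in control females, 2.02% of the 744 members and 0.176% of the 45577 other regions were higher at GD18. This set also rests on few CpGs, with a median of 5.

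The HFD comparison in females uses neither group of control males. It listed 51 members (5.7%), and 844 were not listed. HFD females were lower at 24 members (2.68%), against 0.459% of all regions of the sex table, and higher at 27 (3.02%), against 0.611% of all. The lower regions had a median of 2.8% in HFD females and 15.6% in control females, and the higher regions had a median of 17.4% in HFD females and 0.9% in control females. Control females also enter the sex comparison, and their level differs between members and other regions. Within the regions of 10% or more in control females, 13.9% of the members and 10.4% of the other regions were lower on HFD. Within those under 10%, 0.403% of the members and 0.0549% of the other regions were lower on HFD, while 3.23% of the members and 0.584% of the other regions were higher.

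The shares of the members were above those of all regions at either end of the size range. Of the members with 10 or more CpGs, 3.51% were lower and 5.26% higher in HFD females, against 0.259 and 0.388% of all such regions. Of the members with exactly 5 CpGs, 3.47% were lower and 2.6% higher, against 0.667 and 0.736% of all such regions. These shares by size are not matched for the control female level, and the part of that level in them was not tested.

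In single regions the difference of HFD minus control females ran from -30.5 to 53.1 points. Trim71, an RNA-binding ubiquitin ligase gene of embryonic cells, had 59.8% in HFD females and 22.3% in control females at its transcription termination site over 10 CpGs (chr8:122552964-122553098, authors' FDR 6.11e-09). An intergenic region had 53.1% in HFD females and 0% in control females (chr15:105529469-105529557 as a member), and the promoter of Defb23, a beta-defensin gene, had 36.9% in HFD females and 5.8% in control females. Snap91, a clathrin assembly gene of synapses, had 23.8% in HFD females and 0.9% in control females, and Mapkapk2, a kinase gene of the p38 pathway, had 21.5% in HFD females and 3.5% in control females. In the other direction, Tns3 had 1.8% in HFD females and 22.3% in control females, and an intergenic region had 0.9% in HFD females and 31.4% in control females (within chr8:17370833-17371226).

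Several members are listed in more than 1 further comparison. The comparisons share control males or control females, so the directions below are given side by side and not as separate support. HFD males and HFD females are both listed at 31 members: HFD males were lower at all 31, and HFD females were higher at 18 and lower at 13. HFD males and GD18 males are both listed at 41 members, with HFD males lower at all 41 and GD18 males lower at 32 and higher at 9. The lower direction in HFD males largely follows from that comparison alone, where 501 of the 507 listed members had a lower region. All 3 further comparisons list 16 members, and 344 members are found in the sex table only. The same combined counts were not made over all regions of the sex table, so whether these numbers are unusual cannot be said.

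Trim71 had opposite directions in the sexes, with 6.0% in HFD males and 43.5% in control males, 59.8% in HFD females and 22.3% in control females, and 7.2% in GD18 males. The Stoml3 promoter had 7.1% in HFD males and 35% in control males, 10.4% in HFD females and 0% in control females, and 13.1% in GD18 males. Tns3 had 26.6% in HFD males and 56.0% in control males, 1.8% in HFD females and 21.7% in control females, and 3.2% in GD18 males. Hsf2bp, a meiotic recombination gene in the mouse, had 15% in HFD males and 42.8% in control males, 9.5% in HFD females and 20.6% in control females, and 8.0% in GD18 males. Wipf2, a gene of actin assembly, had 14.5% in HFD males and 40.7% in control males, 17.8% in HFD females and 0% in control females, and 11.5% in GD18 males. In these sentences the control levels are those of the sex table, and the HFD regions of Trim71, Stoml3, Tns3 and Hsf2bp overlap the member without the same start and end in at least 1 sex. Stoml3 and Wipf2 had 7.1 to 17.8% in HFD males, HFD females and GD18 males, between their control male and control female levels, while Hsf2bp and Tns3 were lowest in GD18 males or HFD females.

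The unplaced scaffold stood apart from every other member. Its 3 members had 84.4, 57.0 and 85.7% in control males at GD16, against 70, 72.4 and 69.3% in control females, and the region with 57.0% is the only member higher in females. HFD males had 73.0 and 58.1% at 2 overlapping regions, against 60.4 and 88.7% in control males, and GD18 males had 54.9, 76.7 and 80.3% at 3 regions of the scaffold, against 40.6, 90.8 and 69.3% in control females at GD16. No group mean listed on this scaffold was under 40.6%, so it is the only place among the members where all listed groups stayed high. The scaffold has no gene or repeat annotation in the deposited tables.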

How the data were processed

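Germ cell DNA methylation was measured by capture bisulfite sequencing in the 18 samples. The submitters' processing notes name Bismark 0.19.0 and Bowtie2. Per the design text, loci were cut into segments of at least 50 bp and searched for differentially methylated regions, although regions under 50 bp are listed. No source used here names the genome build. The 4 tables of the authors' own comparisons were used. Per the file headers, each row gives 2 group means as a fraction from 0 to 1, deposited by the authors and printed here as percentages. Each signed difference was deposited by the authors as a score whose sign fits both means in every row. The p-value and FDR of each region were deposited by the authors. Counts of CpGs and region lengths were also deposited, while read counts and coverage were not used here, so depth and sampling error are unknown.

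Members (35% or more in control males at GD16) were looked up in the other tables by an overlap of at least 1 bp, with Python 3.11.15, pandas 2.3.3 and numpy 2.4.6, and the script was tested on simulated regions. No test was run, since no value per sample was used; shares are set beside those of all 48127 regions. Tests across samples were not possible. Gene symbols came from RefSeq identifiers in the tables. Named regions were the extremes of each ranking and the genes of the lists; regions named as examples beyond those were chosen after their values were seen. The members and gene lists were chosen with earlier results of these data known. Alternatives varied the level, the number of CpGs, the FDR, the size of the difference, the overlap and the chromosomes.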

Additional observations from a re-analysis of the deposited data

How the results depend on the processing

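Only group means of listed regions were used, so region levels have no error and nothing below is a test. No paired analysis was possible because the tables hold group means and no sample columns. Leaving out a replicate and a coverage minimum could not be run for the same reason. Settings of exactly 5 CpGs and without the X chromosome and unplaced scaffolds were chosen after seeing the data.

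Counts followed the thresholds. A control male level of 30, 40 or 50% gave 2644, 348 or 82 regions in place of 895, and 114 had 10 or more CpGs (median of 12 CpGs and 297 bp) and 346 had exactly 5. Members lower in HFD males (501) numbered 1231 at 30%, 199 at 40%, 92 with 10 or more CpGs, 140 with exactly 5 and 164 with the same start and end. Members higher in HFD males (7) numbered 16 at 30%, 1 with 10 or more CpGs, 4 with exactly 5, 0 with the same start and end, 2 with an overlap of at least 50% of both regions, and 1 with 20 points or more. Members lower at GD18 (54) numbered 113 at 30%, 29 at 40%, 6 with 10 or more CpGs, 18 with exactly 5, 23 at an FDR of 0.01 and 7 with 20 points or more. Members higher at GD18 (16) numbered 9 at 40%, 1 with 10 or more CpGs, 10 with exactly 5 and 0 with 20 points or more. Members lower in HFD females (24) numbered 47 at 30%, 13 at 40%, 4 with 10 or more CpGs, 12 with exactly 5, 13 at an FDR of 0.01, 7 with the same start and end and 3 with 20 points or more. Members higher in HFD females (27) numbered 43 at 30%, 17 at 40%, 6 with 10 or more CpGs, 9 with exactly 5, 17 at an FDR of 0.01, 9 with the same start and end and 6 with 20 points or more. These counts shrink or grow with the number of regions kept. Without the X chromosome and unplaced scaffolds, all counts stayed within 1.5 times.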
